A study of Caenorhabditis elegans with 10 samples.

Results

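The genes studied were the nuclear hormone receptors of Caenorhabditis elegans that carry a numbered nhr name. Members were the genes whose symbol in the Ensembl annotation of assembly WBcel235 was "nhr-" and a number, a rule met by 269 of 46589 genes listed. The annotation holds 269 such genes, all protein coding, and each was found in the count tables. Whole animals of a him-5 strain had been sequenced, with 5 libraries of hermaphrodites and 5 of males. Each sex had 1 library at each of 5 windows after hatching. Late L3 larvae were taken at 30 to 34 h, early L4 larvae at 36 to 40 h, late L4 larvae at 42 to 46 h, and young adults at both 48 to 52 h and 54 to 58 h. All animals carried the him-5 mutation, under which loss of an X chromosome in meiosis yields many males, and no other genotype or treatment was labelled. Culture was at 20 °C on plates seeded with Escherichia coli OP50. A whole-animal level sums all tissues, so fewer cells of a type and less RNA per cell cannot be told apart.

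Nuclear hormone receptors are transcription factors with a zinc finger domain that binds DNA and a pocket that can bind a small lipophilic ligand such as a steroid or a fatty acid. Nematodes have many more of them than insects or mammals, and most of the nematode genes descend from expansions of a receptor related to HNF4. A few belong to families shared across animals and act in molting, cell fate and reproduction, while well-studied members of the expanded group control fat and diet-dependent metabolism in the intestine. Most members have no described role, and they are named below without one.

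No sex and window was replicated, so each test takes its error from the spread between libraries across windows. Separate cultures are not named in the labels, and the p-values therefore speak for that spread alone, which may be technical and includes change between windows. Reads assigned to genes ranged from 8189325 (hermaphrodites, 42 to 46 h) to 27907544 (males, 36 to 40 h). Reads not aligned made up 25.4% in males at 54 to 58 h and 3.31% to 13.5% in the other libraries. Levels are CPM, a gene's reads relative to all gene reads of the library after TMM scaling, and series of 5 values run in order of time. The sex labels were checked on 10 sperm genes, which summed to 73.1 to 224 CPM in the hermaphrodite libraries and to 378 to 1371 CPM in those of males. In hermaphrodites at 48 to 52 h, 1 of these genes, spe-38, had no read.

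Most receptor genes were weakly expressed. Of the 269 members, 180 reached 1 CPM in at least 2 libraries and were tested, and 89 did not. Of those 89, 19 had no read in any library and 32 had 1 to 9 reads in all libraries together. The median over tested members of the mean level was 4.51 CPM, against 13.4 CPM over all 15924 genes tested. Only 44 members had a mean of at least 10 CPM and 6 had a mean of at least 50 CPM. Among the tested members, 153 reached 1 CPM in 2 libraries of each sex, 18 did so in males alone and 5 in hermaphrodites alone. The remaining 4 reached it in 1 library of each sex. Members that passed through 1 sex alone were picked by their level in that sex, which favours a sex difference. Counts over tested members are therefore not counts over the family.

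Chromosome V held 167 of the members, or 62.1%, against 25.1% of all protein-coding genes. Of these 167 genes, 113 were tested, and their median mean level was 2.81 CPM. The other chromosomes held 102 members, of which 67 were tested with a median of 10.9 CPM. The median log2 ratio of young adult males to young adult hermaphrodites over tested members was 1.01 on V and 0.97 elsewhere. Within 5 kb of another member lay 142 members, and 22 overlapped an annotated exon of another gene on the same strand. A further overlap with exons on the opposite strand was found for 46, and whether the reads were counted by strand is not given in the sources used here.

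**Figure D1:**
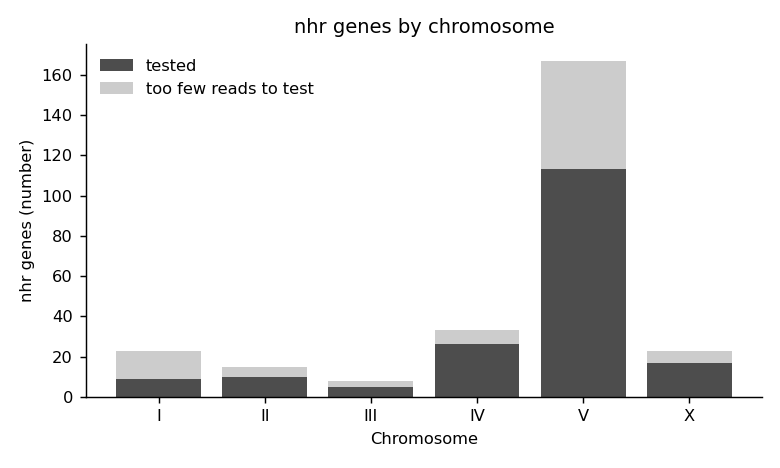
Number of nhr genes (vertical axis) on each chromosome (horizontal axis), with dark bars for the genes tested and light bars for those with too few reads. Chromosome V holds 167 of the 269 genes, 113 of them tested.

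The summed level of all members was lower in each later window of hermaphrodites up to 48 to 52 h. It was 2122, 1702, 1390, 1241 and 1277 CPM in hermaphrodites. In males it was 1981, 1740, 1835, 1649 and 1744 CPM. The sexes were close at the first 2 windows, and from 42 to 46 h on every male library lay above every hermaphrodite library. The number of members at 1 CPM or more went the same way, with 169, 151, 140, 126 and 128 in the hermaphrodite libraries. The male libraries had 166, 161, 156, 155 and 154. In the 2 young adult hermaphrodite libraries, 10 genes supplied 44.8% and 44.5% of the summed level, against 36.9% and 33.3% in the young adult males.

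The window of the highest level also differed between members and all genes. In hermaphrodites, 92 of 180 tested members (51.1%) were highest at 30 to 34 h and 58 (32.2%) at 36 to 40 h. Over all genes tested these shares were 27.5% and 24.5%. At 54 to 58 h, 13 members (7.22%) were highest, against 29.9% of all genes. In males 67 members (37.2%) were highest at 30 to 34 h, against 22.8% of all genes. At 36 to 40 h the male share was below that of all genes, with 19 members (10.6%) against 21.4%. At 42 to 46 h 45 members (25%) were highest in males, against 16.5% of all genes. These shares are descriptions of single libraries.

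**Figure D2:**
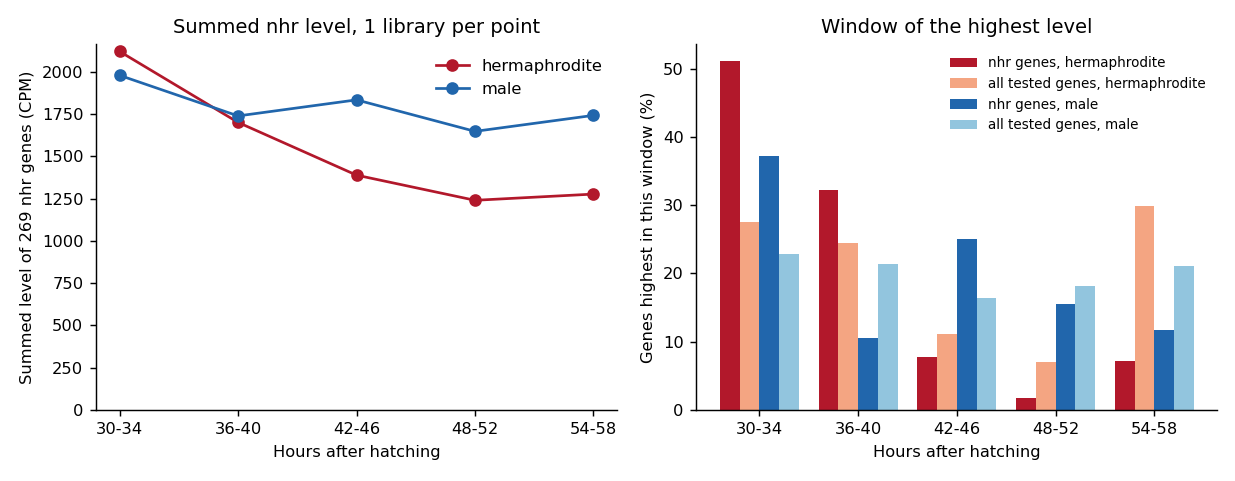
Left, summed level of the 269 nhr genes in CPM (vertical axis) by hours after hatching (horizontal axis), 1 point per library, hermaphrodites in red and males in blue. Right, percentage of genes whose highest level fell in each window, for the 180 tested nhr genes (dark bars) and all tested genes (light bars) in each sex; in hermaphrodites 51.1% of nhr genes were highest in the first window.

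Per length of annotated exon, the most abundant members were mostly receptors of metabolism. Levels between genes are compared here as mean CPM per kb. The order was nhr-68 (53.7 CPM per kb), nhr-114 (44.7), nhr-49 (44.1), nhr-105 (29.7), nhr-31 (26.4), nhr-86 (24.9), nhr-10 (23.3) and nhr-97 (22.3). The SD over 5 hermaphrodite libraries was 34.3 CPM on a mean of 66.6 CPM for nhr-68 and 34.9 on 68.6 for nhr-114. These SDs are not per kb and include change with age. Whether neighbours in this order differ was not tested. The receptor nhr-31, known for growth of the excretory cell, is followed below. In CPM the highest mean belonged to nhr-97 (chrIV:9757641-9764499), a long transcript without a role given here. It stood at 97.3, 108, 119.8, 113.77 and 96.5 CPM in hermaphrodites and 76.9, 55.8, 124, 155 and 92.8 CPM in males. The male values were more spread than the hermaphrodite values and enclosed them. No test called nhr-97, and its sex log2 ratio was -0.17 ± 0.254 (adjusted p = 0.632, edgeR).

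Of 11 members with relatives outside nematodes, 9 were tested. All of these but nhr-23 had their highest library before the adult stage in both sexes. The gene nhr-25 (chrX:13008493-13013964), the relative of Ftz-F1 and SF-1 that acts in molting, epidermis and vulva, stood at 18.3, 3.32, 0.572, 0.938 and 3.99 CPM in hermaphrodites. In males it stood at 17.6, 3.76, 1.29, 0.637 and 1.54 CPM. The late L3 libraries were far above all others in both sexes, and the values of the sexes overlapped. This was the member called in the test for change between windows common to both sexes (adjusted p = 0.0377, edgeR quasi-likelihood test with Benjamini-Hochberg adjustment). That test called 1 of 180 members, against 4.06% of all genes tested. At an unadjusted p under 0.05 it gave 10 members, and 2079 of all 15924 genes tested. Without the window of 30 to 34 h, 36 to 40 h, 42 to 46 h or 48 to 52 h, or without the late L4 males alone, 0 members were called, and calls over all genes went from 647 to between 322 and 440. The gene nhr-25 was called in 7 of 13 alternatives.

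The members next in order of the window test did not pass it. The gene nhr-155, described below, had an adjusted p of 0.085 (edgeR). The gene nhr-74 was at 6.99, 13.8, 1.37, 2.38 and 1.62 CPM in hermaphrodites and 6.35, 24.7, 4.06, 5.97 and 8.64 CPM in males, with early L4 highest in both (adjusted p = 0.206). The gene nhr-43 was at 9.5, 13.1, 3.21, 2.88 and 3.58 CPM in hermaphrodites and 12.5, 11.4, 5.86, 4.06 and 5.48 CPM in males, with the first 2 windows above the later 3 in both sexes (adjusted p = 0.286, edgeR). The gene nhr-270 was at 2.3, 0, 0, 0 and 0.135 CPM in hermaphrodites and 4.78, 1.23, 0, 0.478 and 0.309 CPM in males, with late L3 highest in both (adjusted p = 0.283).

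The gene nhr-85 (chrI:13055201-13062122), related to E75 and Rev-erb and known in the timing of larval development, was at 35.3, 9.26, 6.07, 1.5 and 2.23 CPM in hermaphrodites. In males it was at 19.1, 4.99, 10.1, 7.32 and 5.33 CPM. Both sexes were highest at late L3, and the young adult hermaphrodites were below every male library. Its hermaphrodite slope, the log2 change per 6 h step, was -1.04 ± 0.197 (adjusted p = 0.00493, edgeR). For every log2 value the figure after ± is an approximate standard error, obtained as its size over the square root of F. Without the late L3 hermaphrodite library the adjusted p was 0.0514, and 835 of 2516 bases of nhr-85 exon lie opposite an exon of another gene. In young adults it was higher in males, with a log2 ratio of 1.77 ± 0.43 (adjusted p = 0.0167).

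The gene nhr-23, related to ROR and required for molting, did not pass any test. It stood at 24.8, 16.1, 13.1, 25.6 and 25.8 CPM in hermaphrodites and 35.5, 20.2, 29.3, 33.1 and 34 CPM in males. Males were above hermaphrodites in each of the 5 windows, by amounts that left the groups overlapping (sex log2 ratio 0.55 ± 0.274, adjusted p = 0.165, edgeR). Adult levels were close to those of late L3. The gene nhr-41, related to DHR78, was at 16.9, 42.6, 10.1, 9.19 and 5.74 CPM in hermaphrodites and 18.1, 25.7, 12.6, 5.09 and 10.2 CPM in males. Early L4 was its highest window in both sexes, and the window test gave an adjusted p of 0.217 (edgeR).

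The gene nhr-91, related to GCNF, was at 8.45, 6.06, 2.18, 2.13 and 1.69 CPM in hermaphrodites and 12.7, 4.88, 2.52, 1.99 and 1.85 CPM in males. It fell in hermaphrodites, with a slope of -0.62 ± 0.161 log2 per step (adjusted p = 0.0184, edgeR), and the male slope of -0.69 ± 0.154 did not pass (adjusted p = 0.0819). Both sexes were highest at late L3 and overlapped throughout. The genes nhr-8 and nhr-48 are relatives of the dauer steroid receptor daf-12. The first, which acts in cholesterol balance and resistance to toxins, was at 16.6, 8.35, 16.1, 6.63 and 6.08 CPM in hermaphrodites and 12.5, 9.05, 21.1, 15.5 and 14.9 CPM in males. Young adult males were above young adult hermaphrodites (log2 ratio 1.27 ± 0.259, adjusted p = 0.00958, edgeR). The gene nhr-48 was at 20.6, 17.6, 12.6, 11.6 and 15.3 CPM in hermaphrodites and 17.3, 14.5, 13.5, 14.4 and 12.7 CPM in males, a narrow range in both, and its young adult log2 ratio was 0.02 ± 0.26 (adjusted p = 0.952). Whether the ratios of nhr-8 and nhr-48 differ was not tested.

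The remaining conserved members were weakly expressed. The gene nhr-67, related to tailless and known in the anchor cell and the male linker cell, was at 0.73, 0, 0.687, 0.188 and 0.608 CPM in hermaphrodites. Males were at 1.48, 1.56, 1.54, 1.43 and 0.695 CPM. Males were above hermaphrodites at each window, and the lowest male library overlapped the highest hermaphrodite one (sex log2 ratio 1.82 ± 0.985, adjusted p = 0.196, edgeR). No hermaphrodite library of nhr-67 reached 1 CPM, so it passed the filter through males alone. The gene nhr-6, related to NR4A receptors and known in the spermatheca, was at 2.71, 0, 0.343, 0.313 and 0.541 CPM in hermaphrodites and 0.522, 1.01, 3.34, 2.71 and 1.23 CPM in males, with no call. Too few reads for a test were found for nhr-111, with 8 reads in males and 0 in hermaphrodites, and for nhr-239, with 10 reads in all.

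Among 10 members known to regulate metabolism, all tested, 3 fell and 2 rose with age in hermaphrodites, where 16.9% of all genes tested fell and 20.9% rose. The receptors nhr-10 and nhr-68 switch on the shunt that breaks down propionate when vitamin B12 is low. The gene nhr-68 (chrV:11573440-11575709) was at 104.04, 97.3, 66.4, 38.3 and 27 CPM in hermaphrodites and 94.2, 109.6, 77.5, 54.1 and 47.5 CPM in males. The young adults of both sexes were lowest, hermaphrodites below males. Its slope was -0.53 ± 0.0784 in hermaphrodites (adjusted p = 0.00189, edgeR) and -0.31 ± 0.077 in males (adjusted p = 0.0948), and the difference of the slopes was 0.22 ± 0.0786 (adjusted p = 0.0935). The gene nhr-10 was at 50.6, 41.8, 34.7, 27.1 and 22.8 CPM in hermaphrodites, lower at each later window, and at 44.9, 32.3, 42.2, 25.1 and 39.4 CPM in males, without an order. The hermaphrodite slope of nhr-10 was -0.29 ± 0.0886 (adjusted p = 0.0319, edgeR).

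The gene nhr-49, a central regulator of fat breakdown and desaturation, passed no test. It was at 102, 101, 82, 104.46 and 112.77 CPM in hermaphrodites and 107, 98, 82.3, 66.2 and 83.9 CPM in males. The groups overlapped, and in young adults both male libraries were below both hermaphrodite libraries without passing the test (log2 ratio -0.52 ± 0.21, adjusted p = 0.0804, edgeR). Of its known partners in lipid regulation, nhr-80 was at 26.6, 20.8, 18.1, 9 and 8.31 CPM in hermaphrodites, with each window below the one before, and at 17, 16.6, 15.8, 18.7 and 16.3 CPM in males, nearly level. Its hermaphrodite slope was -0.45 ± 0.0878 (adjusted p = 0.0053, edgeR), and its young adult ratio was 1.02 ± 0.246 (adjusted p = 0.0163). The partner nhr-13 was at 7.83, 2.52, 3.55, 11.4 and 10.3 CPM in hermaphrodites and 8.35, 4.4, 3.96, 5.89 and 5.94 CPM in males. Its young adult hermaphrodites were above both young adult males (log2 ratio -0.86 ± 0.282, adjusted p = 0.0433, edgeR).

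The third partner, nhr-66 (chrIV:8226331-8236602), which with nhr-49 represses sphingolipid and lipid breakdown genes, rose in hermaphrodites. It was at 48.6, 53.3, 72, 119.7 and 151 CPM in hermaphrodites, higher at each later window. Males were at 51.3, 55.4, 37.6, 38.8 and 31.8 CPM. The sexes were close at the first 2 windows and did not overlap at the last 3. The hermaphrodite slope was 0.44 ± 0.0636 (adjusted p = 0.00173, edgeR quasi-likelihood test), called in all 17 of 17 alternatives run for it. The young adult log2 ratio of males over hermaphrodites was -1.93 ± 0.21 (adjusted p = 0.00172), called in 12 of 12. The difference of the slopes, males minus hermaphrodites, was -0.63 ± 0.0973 (adjusted p = 0.0255), called in 9 of 15. Of its 4831 exon bases, 130 lie opposite an exon of another gene.

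The gene nhr-86, a receptor of the intestinal response to pathogens and toxins, was at 31.3, 36.6, 36.5, 50.3 and 56.1 CPM in hermaphrodites and 31, 33.8, 23.9, 28.7 and 24.6 CPM in males. The last 2 hermaphrodite libraries were the highest of all 10. It rose in hermaphrodites by 0.21 ± 0.0684 per step (adjusted p = 0.0384, edgeR), a call kept in 6 of 17 alternatives. In young adults it was lower in males, with a log2 ratio of -0.98 ± 0.197 (adjusted p = 0.00885). The gene nhr-62, which acts in the response to dietary restriction, was at 4.28, 2.4, 2.75, 1.81 and 2.16 CPM in hermaphrodites and 5.13, 6.82, 11.8, 14.2 and 15.9 CPM in males. Every male library was above every hermaphrodite library, and each later male library was above the one before. The male slope of nhr-62 was 0.43 ± 0.126 and did not pass (adjusted p = 0.126, edgeR). The gene nhr-114, which adjusts metabolism to the bacterial diet, was at 128, 69.6, 40.8, 48.7 and 55.7 CPM in hermaphrodites and 66.4, 100.5, 65.8, 70.2 and 34.6 CPM in males. The values overlapped and no test called it, with a hermaphrodite slope of -0.29 ± 0.124 (adjusted p = 0.091).

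Members first described in embryos or in other tissues included the gene with the steepest rise. The gene nhr-2 (chrI:5818474-5821134), known for its expression in the early embryo, was at 0.417, 0, 2.06, 14.1 and 25.6 CPM in hermaphrodites. Males were at 0.609, 0.223, 1.34, 0.0796 and 1.31 CPM. The 2 young adult hermaphrodite libraries were far above the other 8. Its hermaphrodite slope was 1.82 ± 0.48 per step (adjusted p = 0.0191, edgeR), and the adjusted p was 0.0969 without the hermaphrodites of 54 to 58 h. The young adult log2 ratio was -4.78 ± 0.902 (adjusted p = 0.00745), called in 11 of 11 alternatives. The gene nhr-40, known in muscle and in embryonic and early larval growth, was at 22, 22.6, 12.9, 8 and 6.76 CPM in hermaphrodites and 33.7, 28.4, 25.6, 25.3 and 22 CPM in males. It fell in hermaphrodites, with a slope of -0.50 ± 0.0857 (adjusted p = 0.00335, edgeR), and young adult males were higher (log2 ratio 1.69 ± 0.253, adjusted p = 0.00375). The first 2 hermaphrodite libraries reached the lowest male level, at 54 to 58 h, and the later 3 did not.

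The gene nhr-1 was at 19.5, 3.43, 11.7, 13 and 12.2 CPM in hermaphrodites and 19.7, 20.6, 34.5, 26.6 and 21.9 CPM in males. All 5 male libraries were above all 5 hermaphrodite libraries, while the test over windows did not pass (log2 ratio 1.19 ± 0.418, adjusted p = 0.0771, edgeR). The gene nhr-57, a known target of the hypoxia factor HIF-1, was at 4.9, 5.95, 2.98, 3.56 and 1.76 CPM in hermaphrodites and 6.44, 4.92, 7.87, 9.87 and 8.72 CPM in males, and young adult males were higher (log2 ratio 1.8 ± 0.453, adjusted p = 0.0187). The gene nhr-60 did not exceed 1.91 CPM in any library and passed no test.

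Over the hermaphrodite course as a whole, more members fell than rose. Of 180 tested members 34 fell, where 16.9% of all genes tested fell, and 3 rose (nhr-2, nhr-66 and nhr-86), where 20.9% of all genes rose. The share of members that fell, 18.9%, was near that of all genes, and the share that rose, 1.67%, was below it. The median slope was -0.36 log2 per step over the members and -0.15 over all genes tested. The medians depended on the scaling, at -0.31 for members and -0.10 for all genes under RLE factors. Without scaling factors they were -0.45 and -0.23. Of the 34, 33 reached 1 CPM in 2 libraries of both sexes. Without the hermaphrodites of 48 to 52 h 12 members fell, with a median slope over the members of -0.36, and without those of 54 to 58 h 8 fell, with a median of -0.42. Calls over all genes in either direction went from 6016 to 3909 and 2615 in these fits. Leaving out any other library gave 28 to 39 members that fell, with 5273 to 6645 calls over all genes in either direction.

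Steep slopes were found in weakly expressed members. The gene nhr-113 (chrI:11473218-11475662) was at 2.82, 7.32, 0, 0.0625 and 0 CPM in hermaphrodites and 5.13, 5.81, 3.7, 4.14 and 1.54 CPM in males. It was at or near 0 in hermaphrodites from late L4 on, while every male library held reads. Its slope in hermaphrodites was -2.53 ± 0.667 (adjusted p = 0.0188, edgeR). The gene nhr-112 was at 3.76, 4.69, 1.72, 0.563 and 0.811 CPM in hermaphrodites and 3.22, 2.79, 3.91, 4.22 and 4.79 CPM in males, and its slope was -0.74 ± 0.199 (adjusted p = 0.0201). The gene nhr-155 was at 7.41, 4, 1.03, 0.0625 and 0 CPM in hermaphrodites and 3.04, 1.38, 2.31, 0 and 0 CPM in males, with almost no read in adults of either sex. The hermaphrodite slope of nhr-155 was -2.20 ± 0.609 (adjusted p = 0.0227, edgeR) and the male slope -1.51 ± 0.626 (adjusted p = 0.233).

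A pair of neighbouring members fell. The gene nhr-153 (chrV:12104220-12106537) ends 604 bases before nhr-136 (chrV:12107141-12109313) on the same strand. The gene nhr-136 was at 9.5, 12.9, 4.12, 3.38 and 1.28 CPM in hermaphrodites and 17.1, 19.7, 12.3, 10.03 and 10.7 CPM in males, with males above at each window. Its slope was -0.79 ± 0.164 (adjusted p = 0.00719, edgeR). The gene nhr-153 was at 10.02, 11.9, 4.81, 2.06 and 1.96 CPM in hermaphrodites and 6.78, 10.7, 10.3, 7.48 and 8.18 CPM in males, lower in hermaphrodites from late L4. Its slope was -0.74 ± 0.159 (adjusted p = 0.00856). Of the 1643 exon bases of nhr-136, 268 lie opposite an exon of another gene. Whether the pair shares reads was not tested. The slope calls of nhr-112, nhr-113, nhr-136 and nhr-153 were lost without the hermaphrodites of 54 to 58 h, with adjusted p up to 0.0712, 0.117, 0.0896 and 0.0582, and those of nhr-112 and nhr-113 also without those of 48 to 52 h. Other abundant members that fell were nhr-31 and nhr-105. The gene nhr-105 was at 60.4, 22, 22.7, 16.9 and 19.1 CPM in hermaphrodites and 48, 51.1, 46.1, 34.9 and 89.3 CPM in males, and its slope of -0.39 ± 0.134 (adjusted p = 0.0491, edgeR) came with a late L3 library far above the other 4.

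Levels of cell type markers moved over the same hermaphrodite libraries. The summed level of 10 germline and oocyte genes was 377, 701, 3068, 7342 and 8527 CPM in hermaphrodites, and between 341 and 700.0 CPM in males, and all 10 rose in hermaphrodites. The sum of 10 neuron genes was 385, 313, 207, 165 and 145 CPM in hermaphrodites, and between 489 and 587 CPM in males. Of these genes 9 fell in hermaphrodites, and snb-1 rose, at 52.2, 42.9, 52.3, 72.9 and 83.2 CPM. The sum of 10 body wall muscle genes was 10527, 8455, 6731, 6473 and 4036 CPM in hermaphrodites, and between 9453 and 15566 CPM in males. The sum of 9 intestine genes ranged from 3245 to 3771 CPM in hermaphrodites, and from 1770 to 3123 CPM in males. Much of this sum came from asp-1, at 1414, 1479, 1897, 2041 and 2024 CPM in hermaphrodites, which was not called. Of the intestine genes 3 fell in hermaphrodites (act-5, ifb-2 and pho-1) and 0 rose, where 16.9% of all genes tested fell and 20.9% rose. The sum of 10 epidermis genes, nhr-23 among them, was 1084, 1284, 225, 150 and 177 CPM in hermaphrodites. In males it was 1568, 1752, 366, 128 and 123 CPM, with dpy-7 and wrt-2 at 0 at 48 to 52 h. Of the epidermis genes 4 fell in hermaphrodites, and lin-26 rose, at 42.8, 39, 57, 101 and 127 CPM. The part of these cell types in the receptor results was not tested.

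In males no member passed the slope test in either direction. The edgeR quasi-likelihood test called 0 rising and 0 falling members, against 0.276% and 0.314% of all genes tested, so the test had few calls at all. At an unadjusted p under 0.05, 2 members had a positive slope and 11 a negative one, against 1063 and 2021 of all 15924 genes. DESeq2 called 2 and 3 members, and limma-voom 1 and 2. Calls over all genes in either direction went from 94 to 1983 with DESeq2 and 931 with limma-voom. The median male slope was -0.07 over the members and -0.01 over all genes. The plot of the 2 slopes sets each member's values side by side.

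**Figure D3:**
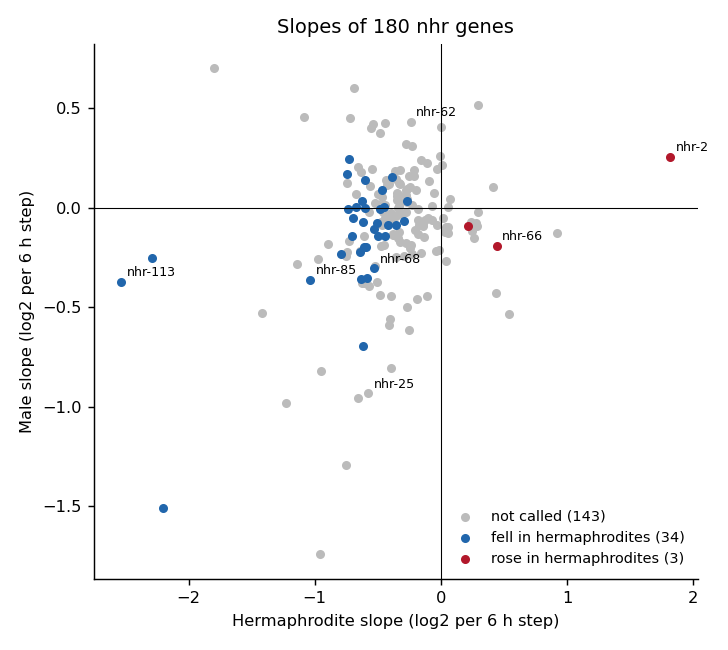
Slope in hermaphrodites (horizontal axis) against slope in males (vertical axis), both in log2 per 6 h step, for the 180 tested nhr genes; blue points fell and red points rose in hermaphrodites. The 34 falling genes lie left of the vertical zero line, nhr-113 far out at -2.53, and the 3 rising genes, nhr-2 and nhr-66 among them, lie to the right.

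The slopes of the sexes were compared directly in a fit with the window as a block. The slope was higher in males for 3 members (nhr-7, nhr-31 and nhr-153), against 5.6% of all genes tested, and lower for 1 (nhr-66), against 10.2%. The gene nhr-7 was at 10.6, 2.17, 2.98, 1.5 and 1.22 CPM in hermaphrodites and 5.83, 3.84, 6.73, 8.75 and 9.49 CPM in males. The late L3 hermaphrodites were above all males, and from early L4 on each male library was above its hermaphrodite partner. The slope difference of nhr-7 was 0.94 ± 0.213 (adjusted p = 0.038, edgeR). The gene nhr-31 was at 104.14, 71, 52.3, 26.9 and 20.6 CPM in hermaphrodites and 81, 90.6, 87.2, 59.4 and 51 CPM in males. The hermaphrodites fell through the course, with a slope of -0.61 ± 0.0713 (adjusted p = 0.0013), and the slope difference was 0.41 ± 0.0876 (adjusted p = 0.0343). For nhr-153 it was 0.73 ± 0.179 (adjusted p = 0.0445, edgeR). Without the window of 30 to 34 h the test called 2102 genes in all, against 2519 with it, and nhr-66 alone of the 4. Without any other window, or without only the late L4 males or the last males, it called 0 of all genes tested, so the calls lost there say nothing about these members. Over all of these fits the difference ranged from 0.86 to 1.06 for nhr-7, 0.38 to 0.49 for nhr-31, 0.66 to 0.85 for nhr-153 and -0.68 to -0.58 for nhr-66.

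**Figure D4:**
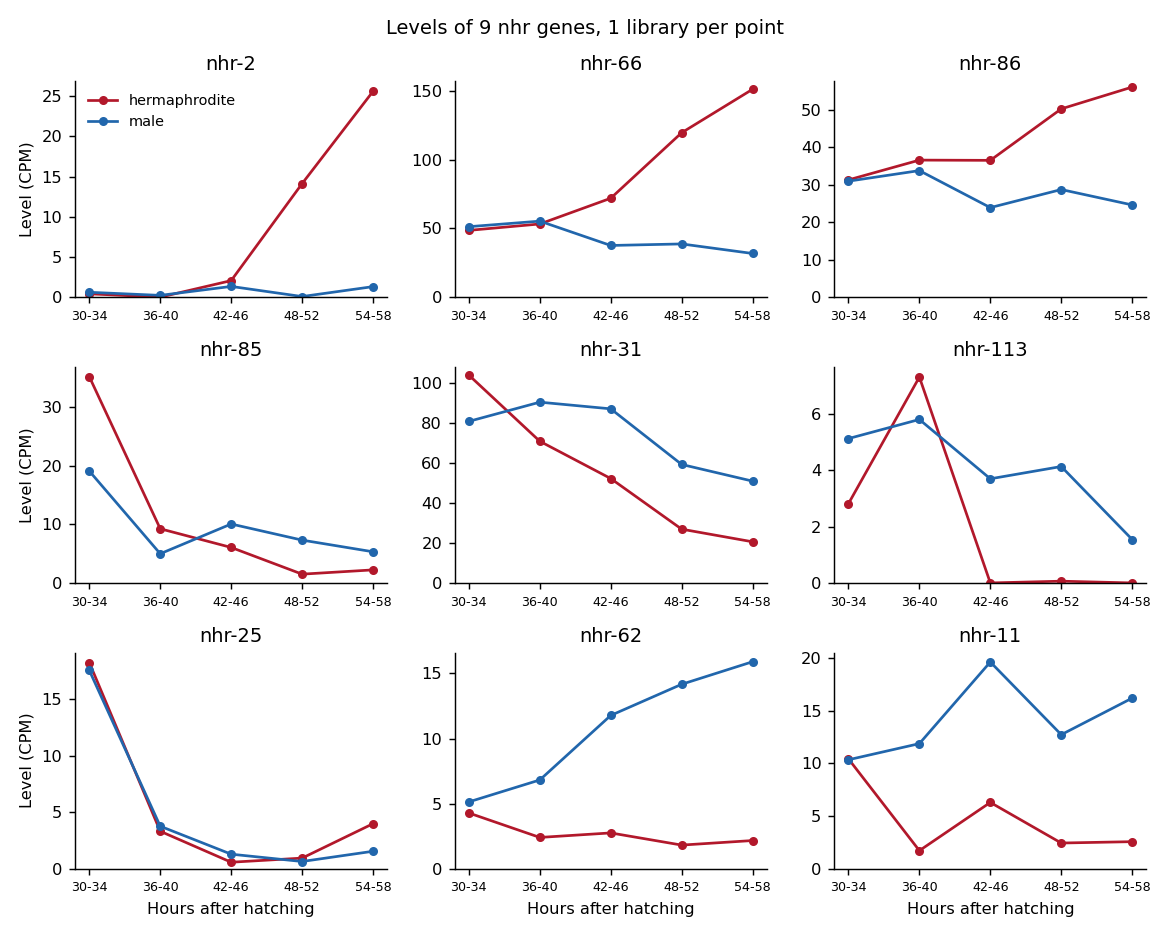
Level in CPM (vertical axes, each from 0) by hours after hatching (horizontal axes) of 9 nhr genes, 1 point per library, hermaphrodites in red and males in blue. The upper row (nhr-2, nhr-66, nhr-86) ends with hermaphrodites above males; nhr-85, nhr-31 and nhr-113 decline in hermaphrodites, nhr-25 is highest at 30 to 34 h in both sexes, and nhr-62 and nhr-11 end higher in males.

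Over all windows, with the window as a block, 4 members were higher in males and none in hermaphrodites. The 4 were nhr-11, nhr-53, nhr-62 and nhr-88, where 15.3% of all genes tested were higher in males. In the other direction edgeR's quasi-likelihood test called 0 members, where 3.56% of all genes were called. At an unadjusted p under 0.05, 19 of 180 members were higher in males and 1 in hermaphrodites. At that limit 4259 of all 15924 genes were higher in males, a larger share than of the members. The share of all genes higher in hermaphrodites was also larger than that of the members. DESeq2 called 21 members higher in males and 1 in hermaphrodites, and limma-voom 14 and 1. The median log2 ratio was 0.45 over the members and 0.21 over all genes, and without scaling factors it was 0.56 and 0.32.

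The gene nhr-88 (chrII:2976639-2987023) was at 43.2, 21.8, 34, 20.8 and 23.2 CPM in hermaphrodites, or 28.6 ± 9.73 (SD, n = 5). In males it was at 61.7, 37.1, 69.8, 64.2 and 67.5 CPM, or 60.1 ± 13.2. Males were higher at each window, and the early L4 male library was the one within the hermaphrodite range. The log2 ratio of nhr-88 was 1.10 ± 0.276 (adjusted p = 0.0357, edgeR quasi-likelihood test with Benjamini-Hochberg adjustment). For nhr-62, whose values are given above, the log2 ratio was 1.96 ± 0.519 (adjusted p = 0.0396, edgeR). The gene nhr-11 was at 10.4, 1.71, 6.3, 2.44 and 2.57 CPM in hermaphrodites and 10.3, 11.9, 19.6, 12.7 and 16.2 CPM in males, the sexes together at late L3 and apart after it. The log2 ratio of nhr-11 was 1.91 ± 0.512 (adjusted p = 0.0408, edgeR). The gene nhr-53 was at 8.66, 2.52, 4.12, 2.25 and 2.64 CPM in hermaphrodites and 11.5, 6.26, 13.1, 7.96 and 9.65 CPM in males, with males higher at each window and the ranges overlapping. The log2 ratio of nhr-53 was 1.42 ± 0.393 (adjusted p = 0.0444, edgeR).

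All 4 calls were lost without the window of 42 to 46 h, 48 to 52 h or 54 to 58 h, and without the late L4 males or the males of 54 to 58 h alone. Calls over all genes went from 3003 to 229, 117 and 1990 without those windows, and to 304 and 2025 without those male libraries. The lowest log2 ratio over these 5 fits was 1.53 for nhr-62, 1.54 for nhr-11, 1.13 for nhr-53 and 0.80 for nhr-88. Without the window of 36 to 40 h, 2 members were called, of which 1, nhr-88, was among the 4. Without the window of 30 to 34 h, 4 were called, of which nhr-11 and nhr-62 were among the 4, while the adjusted p was 0.0522 for nhr-88 and 0.0515 for nhr-53 (edgeR). Every male library was above every hermaphrodite library for 8 members, against 13.3% of all genes. They were nhr-1, nhr-5, nhr-28, nhr-62, nhr-87, nhr-100, nhr-167 and nhr-171. The reverse held for 0 members, against 4.86% of all genes.

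Between young adults, with 2 libraries of each sex, 55 members were higher in males and 8 in hermaphrodites. Of all genes tested 32.7% were higher in males, so the members' share of 30.6% was near the background. The share higher in hermaphrodites, 4.44%, was below the 29.3% of all genes. The median log2 ratio was 0.99 over the members and 0.32 over all genes. Scaling by RLE factors put the median of all genes at 0.24 and that of the members at 0.92. Without scaling factors these were 0.62 and 1.29. Of the 55, 49 reached 1 CPM in 2 libraries of both sexes and 6 in males alone, and the smallest log2 ratio among the 55 was 0.95.

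Both male libraries were above both hermaphrodite libraries for 63.3% of the tested members, against 45.6% of all genes. The reverse was found for 8.33% of them, against 38.2%. With the window as a replicate block the test called 35 members higher in males and 5 in hermaphrodites. Calls over all genes in either direction went from 9871 to 8522 with that block. Without the males of 48 to 52 h 23 members were higher in males, and without those of 54 to 58 h 21 were, where calls over all genes in either direction went from 9871 to 6617 and 6737. The count higher in hermaphrodites was 5 without the hermaphrodites of 54 to 58 h or without either male library. Among the members named below, the calls of nhr-113, nhr-226, nhr-234 and nhr-274 were lost without the males of 48 to 52 h. With the replicate block the calls of nhr-226 (adjusted p = 0.0773), nhr-234 (adjusted p = 0.0506) and nhr-274 (adjusted p = 0.0817, edgeR) were lost as well. The call of nhr-226 was also lost without the hermaphrodites of 48 to 52 h, that of nhr-86 without the males of 54 to 58 h, and that of nhr-274 without either library of 54 to 58 h. Their highest adjusted p over the alternatives was 0.0506 for nhr-113, 0.141 for nhr-226, 0.0708 for nhr-234, 0.209 for nhr-274 and 0.0612 for nhr-86 (edgeR or an alternative).

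Members higher in young adult males included nhr-62, nhr-7, nhr-99 and nhr-226. For nhr-62 the young adult values were 1.81 and 2.16 CPM in hermaphrodites and 14.2 and 15.9 CPM in males, and the log2 ratio was 2.93 ± 0.313 (adjusted p = 0.00167, edgeR). It was called in 12 of 12 alternatives. The gene nhr-99 was at 5.53, 2.29, 2.86, 0.938 and 1.76 CPM in hermaphrodites and 3.74, 3.91, 7.51, 7.88 and 11.5 CPM in males. The last 3 male libraries were above all hermaphrodites, and the young adult log2 ratio was 2.87 ± 0.48 (adjusted p = 0.00518, edgeR). For nhr-7 the ratio was 2.75 ± 0.377 (adjusted p = 0.00295). For nhr-226, at 0.313 and 0.473 CPM in young adult hermaphrodites and 3.98 and 1.47 CPM in males, the ratio was 2.77 ± 0.78 (adjusted p = 0.0271, edgeR).

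In the young adult libraries 80 and 77 members had no read in hermaphrodites, and 66 and 64 in males. Of the members named for the young adult test, nhr-113 and nhr-234 were almost without reads in hermaphrodites. The gene nhr-113 had 72 reads in the 2 young adult male libraries and 1 in the 2 hermaphrodite libraries, a ratio of 86.9 after scaling to depth (95% exact binomial interval 15.1 to 3479). The gene nhr-234, at 1.77, 3.54, 0, 0.0625 and 0.135 CPM in hermaphrodites and 2.87, 7.23, 1.9, 1.99 and 1.16 CPM in males, had 40 and 3 reads there, a ratio of 16.1 (interval 5.12 to 81.3). For nhr-270 the reads were 10 and 2, a ratio of 6.03 (interval 1.29 to 56.6). These intervals cover counting error only. The genes nhr-113 and nhr-234 passed the young adult test, with adjusted p of 0.00797 and 0.0151 in that order (edgeR).

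The 8 members higher in young adult hermaphrodites were nhr-2, nhr-12, nhr-13, nhr-20, nhr-66, nhr-71, nhr-86 and nhr-274. The gene nhr-12 was at 4.49, 1.26, 6.75, 8.56 and 10.8 CPM in hermaphrodites and 5.13, 3.95, 2.88, 1.43 and 1.85 CPM in males, with the late L4 and adult hermaphrodites above all males. Its log2 ratio in young adults was -2.54 ± 0.38 (adjusted p = 0.00374, edgeR). The gene nhr-71 was at 16.2, 9.03, 11.1, 26.3 and 26.6 CPM in hermaphrodites and 13, 9.16, 6.43, 9.39 and 10.03 CPM in males, and both adult hermaphrodite libraries were above all others. Its young adult log2 ratio was -1.43 ± 0.229 (adjusted p = 0.00452, edgeR). The gene nhr-274 was at 10.9, 11.1, 12.7, 18.6 and 22.8 CPM in hermaphrodites and 12.2, 9.57, 8.84, 12.9 and 7.25 CPM in males, with a ratio of -1.04 ± 0.335 (adjusted p = 0.0417) that passed in 6 of 12 alternatives. In the same young adult libraries the 10 germline genes summed to 7342 and 8527 CPM in hermaphrodites and 700.0 and 673 CPM in males. The 10 neuron genes summed to 165 and 145 against 587 and 575 CPM. All 10 germline genes were higher in hermaphrodites, while 9 neuron genes were higher in males. The neuron gene snb-1 was higher in hermaphrodites (log2 ratio -0.87 ± 0.183, adjusted p = 0.0102, edgeR). The part of these cell types in the result was not tested.

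**Figure D5:**
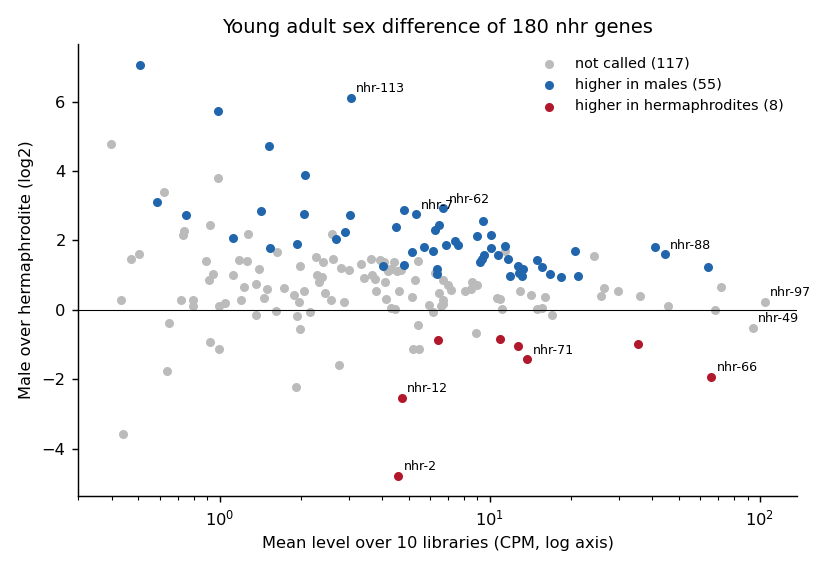
Young adult log2 ratio of males over hermaphrodites (vertical axis) against mean level over the 10 libraries in CPM (horizontal log axis) for the 180 tested nhr genes. Blue points (55) were higher in males and red points (8), among them nhr-2 and nhr-66, were higher in hermaphrodites.

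The 5 nuclear receptors with other names were read beside the family. The dauer steroid receptor daf-12 was at 23, 27, 12.7, 13.6 and 7.23 CPM in hermaphrodites and 18.4, 17, 15.6, 13.6 and 15.4 CPM in males. It fell in hermaphrodites, with a slope of -0.44 ± 0.107 (adjusted p = 0.0144, edgeR). The X chromosome counting receptor sex-1 was at 5.32, 0.915, 2.75, 14.5 and 26.6 CPM in hermaphrodites and 1.91, 5.81, 5.81, 1.19 and 2.86 CPM in males, and was lower in young adult males (log2 ratio -3.31 ± 0.553, adjusted p = 0.00512). The neuronal receptor unc-55 was at 0.522, 0, 0.114, 0.313 and 0.0676 CPM in hermaphrodites and 2.7, 4.4, 4.78, 2.47 and 2.93 CPM in males, without overlap. It was higher in males over all windows (log2 ratio 4.23 ± 0.923, adjusted p = 0.0289, edgeR). No hermaphrodite library of unc-55 reached 1 CPM. It therefore passed the filter through males alone, which favours a sex difference. The neuronal receptor fax-1 passed no test, and odr-7 had too few reads for one.

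Of 7 genes for ligand synthesis and receptor cofactors, 6 were tested. The enzyme daf-9, which completes the DAF-12 ligand, was at 10.7, 4.34, 2.52, 1.19 and 0.878 CPM in hermaphrodites and 12.6, 2.27, 3.08, 0.478 and 0 CPM in males. Late L3 was highest in both, and the hermaphrodite slope was -0.91 ± 0.273 (adjusted p = 0.0304, edgeR). The enzyme daf-36, which acts first in that synthesis, was higher in young adult males (log2 ratio 1.76 ± 0.289, adjusted p = 0.0049). The coactivator cbp-1 rose in hermaphrodites by 0.27 ± 0.0828 per step (adjusted p = 0.0324, edgeR) and was lower in young adult males (log2 ratio -1.03 ± 0.156, adjusted p = 0.00385). The Mediator subunit mdt-15, which binds NHR-49, was at 103, 65.1, 80.8, 105 and 85.9 CPM in hermaphrodites and 90.7, 74.5, 92, 91.9 and 76.1 CPM in males and passed no test. The cofactor din-1 and the enzyme dhs-16 passed none either, and hsd-1 had no read.

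Of 7 known targets of the metabolic receptors, 6 were tested, and 3 fell in hermaphrodites and 0 rose, where 16.9% of all genes tested fell and 20.9% rose. The acyl-CoA synthetase acs-2, a target of NHR-49, was at 293, 107, 115, 36.7 and 50.6 CPM in hermaphrodites and 618, 341, 247, 216 and 315 CPM in males. Each male library was above its hermaphrodite partner (log2 ratio 1.81 ± 0.31, adjusted p = 0.02, edgeR), and the hermaphrodites fell, with a slope of -0.65 ± 0.142 (adjusted p = 0.00901). The desaturase fat-6 fell in hermaphrodites, with a slope of -0.45 ± 0.146 (adjusted p = 0.0418), as did the propionate shunt enzyme hphd-1, with one of -0.32 ± 0.0743 (adjusted p = 0.0111, edgeR). In young adults acdh-1, the first enzyme of that shunt, was higher in males (log2 ratio 0.87 ± 0.189, adjusted p = 0.0114), and the desaturase fat-7 was lower (log2 ratio -2.77 ± 0.697, adjusted p = 0.0186, edgeR). The slope of fat-5 was higher in males by 0.50 ± 0.115 (adjusted p = 0.0394). The remaining target, fmo-2, had too few reads for a test.

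Of 11 molting effectors, all tested, 8 changed between windows, against 4.06% of all genes tested. They were mlt-8, mlt-9, mlt-10, mlt-11, nas-36, noah-1, noah-2 and bli-1, and 6 of the 11 fell in hermaphrodites, against 16.9% of all genes. The molting gene mlt-10 was at 28, 229, 6.53, 2.31 and 4.05 CPM in hermaphrodites and 44.3, 254, 36.2, 1.35 and 1.08 CPM in males, with early L4 highest in both (adjusted p = 0.015, edgeR). The matrix gene noah-1 was at 469, 739, 22.4, 7.63 and 33.6 CPM in hermaphrodites and 1269, 555, 91.1, 6.76 and 27.9 CPM in males, high in both larval stages up to early L4 and low after it (adjusted p = 0.00507). Among the molting receptors themselves nhr-25 passed this test, and nhr-23 did not (adjusted p = 0.809, edgeR).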

How the data were processed

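Whole-animal RNA of 5 hermaphrodite and 5 male libraries was measured. The authors deposited unnormalized read counts for each gene, for which the submitters' processing notes name CASAVA 1.8 and HTSeq. The aligner, the genome build and the use of strand were not given in the sources used here. Beside 46589 genes the tables hold 5 totals without a gene, kept out of all library sizes and tests. As shares of all reads these totals were 2.18% to 3.98% on no feature, 0.321% to 0.745% ambiguous, 3.31% to 25.4% not aligned and 11.2% to 17.8% aligned to several places. Symbols and positions are those of Ensembl for WBcel235 (46179 names found, 410 not found or matching several genes), and coordinates count from 1. Near-identical receptors can lose reads that align to several places.

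A gene was tested when 2 or more libraries reached 1 CPM (15924 genes). Tests used edgeR 4.0.16 in R 4.3.3 (TMM scaling, quasi-likelihood test), with Benjamini-Hochberg adjustment over the whole table and 0.05 as the limit. The fits left 4 residual degrees of freedom for sex, 6 for the slopes, 3 for the slope difference, 4 for windows and 2 for young adults. The replicate number in the labels is the collection window, so it pairs the libraries by age and served as a block for sex and slope difference. The settings tried instead were DESeq2 1.42.0, limma-voom (limma 3.58.1), scaling by RLE or by library size only, other filters, leaving out ribosomal RNA and mitochondrial genes, the other choice of block, and leaving out libraries. Leaving out only the late L4 males or only the last males was chosen after seeing the data. The scripts were tested on simulated data.

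The members and gene lists were chosen with earlier results of these data known. Named members were those of 3 lists of known receptors, up to 6 called changes per direction among members averaging 2 CPM or more, the 8 smallest window p-values and the 8 highest levels per kb. Ratios with 1 to 3 reads in a group carry 95% exact binomial intervals. All intervals cover counting error only.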

Additional observations from a re-analysis of the deposited data

Results flagged for a closer look

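In 89 groups of 5 libraries of 1 sex, formed by the named members, 14 had 1 library set apart from the other 4 by a gap of more than 0.71 of the whole range. Chance gives about 1 in 20 such groups, and because libraries within a sex differ in age, the comparison also picks out change with age. The first hermaphrodite library, late L3, stood highest for nhr-6 (2.71 CPM), nhr-7 (10.6 CPM), nhr-25 (18.3 CPM), nhr-60 (1.67 CPM), nhr-85 (35.3 CPM), nhr-105 (60.4 CPM) and nhr-270 (2.30 CPM). The late L3 males stood highest for nhr-25 (17.6 CPM), nhr-91 (12.7 CPM) and nhr-270 (4.78 CPM). The early L4 males stood highest for nhr-74 (24.7 CPM) and nhr-234 (7.23 CPM) and lowest for nhr-88 (37.1 CPM). The males of 54 to 58 h stood lowest for nhr-67 (0.695 CPM).

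The slope with age differed between the sexes for 4 members in the edgeR test of the difference itself. The difference, males minus hermaphrodites in log2 per 6 h step, was 0.73 for nhr-153 (adjusted p = 0.0445), 0.41 for nhr-31 (adjusted p = 0.0343), 0.94 for nhr-7 (adjusted p = 0.0380) and -0.63 for nhr-66 (adjusted p = 0.0255). Over fits that left out 1 window or 1 male library the difference was 0.66 to 0.85, 0.38 to 0.49, 0.86 to 1.06 and -0.68 to -0.58 in that order, and in all but the fit without the window of 30 to 34 h no gene of the table was called.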

How the results depend on the processing

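No count of members and no named change reversed. Of the values of named members under alternatives, 408 stayed on their side of the threshold, 101 lost the call and 6 gained one. Members higher in males over all windows numbered 4, and 21 with DESeq2, 14 with limma-voom, 1 without ribosomal RNA and mitochondrial genes and 7 with no replicate block. Higher in hermaphrodites were 0, and 1 with DESeq2, 1 with limma-voom and 2 with no replicate block. Over all genes this test called 3003 in either direction, 5920 with DESeq2 and 5258 with limma-voom. It called 3097 without ribosomal RNA and mitochondrial genes and 3977 with no replicate block. Members rising in hermaphrodites numbered 3, and 5 with DESeq2 and 1 under a stricter filter, where 5 or more libraries had to reach 5 CPM. Over all genes the hermaphrodite slope test called 6016 in either direction, 8103 with DESeq2 and 5490 of 10223 with the stricter filter. Rising and falling in males were 0 and 0, against 2 and 3 with DESeq2 and 1 and 2 with limma-voom. All genes called for a male slope numbered 94, against 1983 with DESeq2 and 931 with limma-voom. Slopes higher in males numbered 3, and 24 with DESeq2, 8 with limma-voom, 1 with no filter, 13 with the stricter filter and 5 with no replicate block. Slopes lower in males numbered 1, and 4 with DESeq2 and 2 with limma-voom. The slope difference was called for 2519 of all 15924 genes, 5635 with DESeq2 and 3973 with limma-voom. It was called for 1666 of 25432 with no filter, 3116 of 10223 with the stricter filter and 2697 with no replicate block. Changed between windows was 1, and 5 with DESeq2, 2 with no filter and 0 with the stricter filter. Over all genes the window test called 647, and 1622 with DESeq2, 918 with no filter and 459 with the stricter filter. In young adults the replicate block gave 35 members higher in males instead of 55. Higher in young adult hermaphrodites were 8, and 5 with the replicate block, 5 with library size only and 3 with the stricter filter. Young adult calls over all genes in either direction were 9871, and 8522 with the replicate block. They were 9711 with library size only and 7095 of 10223 with the stricter filter. The cause of these shifts was not tested.

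Leaving out 1 library or window at a time gave ranges of 0 to 4 for higher in males, 1 to 5 for rising and 8 to 39 for falling in hermaphrodites, and 0 to 0 for slopes higher in males. The ranges were 0 to 1 for slopes lower in males, a test in which 6 of these 7 fits called 0 of all genes, 0 to 1 for windows, 21 to 50 for higher in young adult males and 5 to 6 for higher in young adult hermaphrodites. Where this leaves 1 young adult library in a sex, it is assumed to vary like the other sex. The depth limits the weakest members: 3 reads equal 0.107 to 0.366 CPM before TMM scaling.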
